A study of Ovis aries with 12 samples.

Results

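Heat shock proteins and endoplasmic reticulum chaperones were examined through 5 genes, CRYAB, HSPA1A, HSP90AA1, HSPA5 and PDIA4, of the 1027 genes named here on a sheep 1-colour Agilent array. Their probes were picked by gene name or sheep reference accession and by no measured value. The genes themselves were chosen with earlier results of these data known. Every probe named for them was used, which gave 7 probes. RNA came from fetal biceps femoris, a hind-limb muscle, of ewes infused with cortisol at 1 mg/kg/day (6 arrays) and of control ewes given vehicle (6 arrays). Infusion ran from about day 115 of pregnancy, the fetuses carried the label of day 140, and per the series' design text tissue was taken at days 139 to 144, soon after labour had begun. The cortisol was given to the ewe and not to the fetus, in singleton pregnancies, with 7 ewes in each arm. The labels number the samples without saying which ewe each came from, so the p-values measure the spread between these samples. The treatment text of the labels names the left ventricular free wall, whereas the title, source and tissue fields of all 12 samples name the biceps femoris. In whole muscle, fewer cells of a type and less RNA per cell cannot be told apart.

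Chaperones bind unfolded or partly folded proteins and keep them from aggregating. In the cytosol, CRYAB is a small heat shock protein that is abundant in striated muscle and binds desmin filaments and the sarcomere, HSPA1A is the stress-inducible HSP70, and HSP90AA1 is the inducible form of HSP90, which holds steroid receptors ready to bind hormone. In the endoplasmic reticulum, HSPA5 (BiP, GRP78) is the HSP70 that receives newly made secretory and membrane proteins, and PDIA4 (ERp72) forms and rearranges their disulfide bonds. The unfolded protein response raises HSPA5 through the transcription factors ATF6, XBP1 and ATF4.

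The 7 probes are 60 bases long and are shown, 5′ to 3′ as the scanner files give them, because 2 pairs of them decide how far the readings of 1 gene are independent. Capitals mark the bases that both HSPA1A probes share, and the other letters are in lower case.
CRYAB: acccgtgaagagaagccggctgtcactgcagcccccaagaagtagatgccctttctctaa
HSPA1A probe 1: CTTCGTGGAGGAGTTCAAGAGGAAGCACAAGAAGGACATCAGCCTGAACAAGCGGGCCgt
HSPA1A probe 2: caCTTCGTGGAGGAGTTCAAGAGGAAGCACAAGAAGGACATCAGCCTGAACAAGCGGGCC
HSP90AA1: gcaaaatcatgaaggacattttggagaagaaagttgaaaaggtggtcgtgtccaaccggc
HSPA5 probe 1: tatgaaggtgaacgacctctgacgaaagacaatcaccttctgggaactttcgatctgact
HSPA5 probe 2: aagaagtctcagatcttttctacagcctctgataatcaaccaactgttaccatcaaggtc
PDIA4: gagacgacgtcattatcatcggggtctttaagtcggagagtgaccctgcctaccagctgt
The HSPA1A probes share 58 bases, so they read almost the same stretch of RNA and are no independent readings of the gene. The HSPA5 probes start at bases 1053 and 993 of the same source transcript, so they lie end to end without overlap. Coordinates in the sheep genome were not used here, since the files list the probes as unmapped.

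The array names CRYAB, HSP90AA1 and HSPA5 outright. PDIA4 was reached through the Entrez number in the array's gene name, and the array's own description gives protein disulfide isomerase-associated 4. No probe carries the name HSPA1A or a sheep HSPA1A reference accession. Both HSPA1A probes are listed under the older name HSP70.1 and were assigned by hand. HSPA1A has a near-identical neighbouring copy, HSPA1B, and which of them these probes read is uncertain.

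All 7 probes were well above background on all 12 arrays, and 0 had a saturated spot. Levels are log2 intensity minus each array's own 75th percentile, so that 0 means as bright as the probe at that percentile. A level cannot be set against that of another probe. Over the series, the 75th percentile lay between 187 and 447 intensity units, and the share of probes well above background between 66.3% and 76.0%. Neither measure differed detectably between cortisol and control arrays (exact permutation p of 0.375 and 0.762, two-sided). The arrays came from 2 slides, where slide 1 held arrays 1 and 2 of each group and slide 2 held arrays 3 to 6 of each. Of 15 skeletal muscle markers 7 were measured, including MYOD1 and MYOG, while 0 of 10 cardiac markers could be found on the array by name, so heart muscle could not be checked from them. Control array 3 stood apart in its fibre-type genes, with MYH1, a fast myosin, at 0.50 against 4.92 to 5.93 on the other controls.

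No chaperone differed in mean level between the groups beyond the spread between arrays. In the limma fit, 0 of the 7 probes passed an adjusted p of 0.05, as did 0% of all 10730 probes tested, and 0 of the 7 had an unadjusted p under 0.05, against 6.82% (732) of all probes. Of the 7 probes, 2 had a higher and 5 a lower mean after cortisol, against 46.0% higher and 54.0% lower among all probes. None of the 7 had groups that did not overlap, which 0.410% of all probes had. HSPA5 drew attention by its spread, which was noticed once the values had been seen. On both HSPA5 probes all 6 cortisol arrays lay outside the range of the controls, 3 above it and 3 below.

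**Figure D1:**
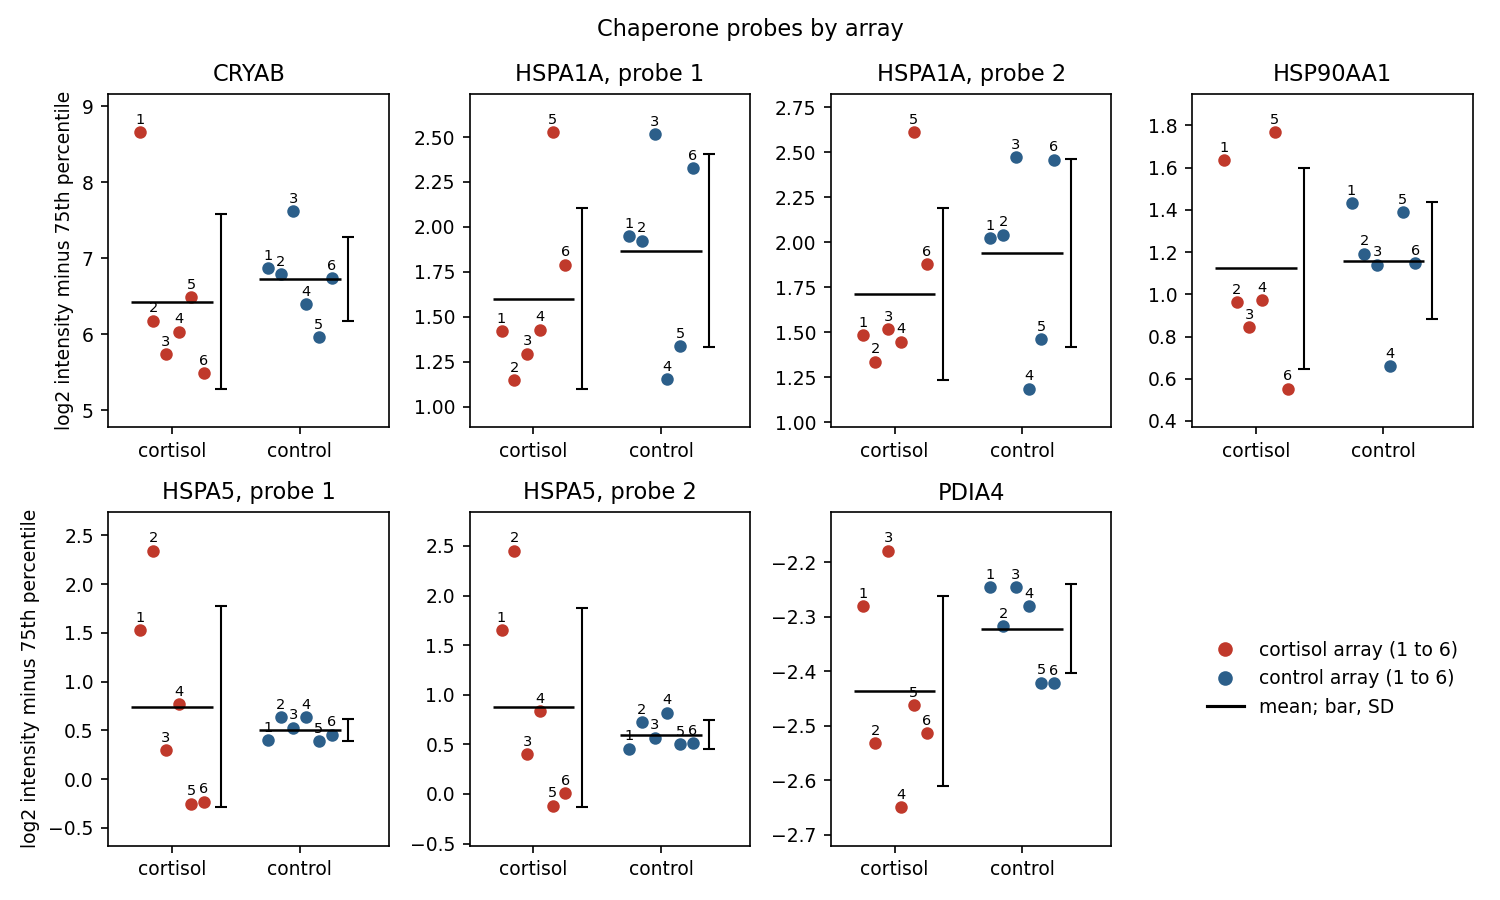
Level of each chaperone probe (log2 intensity minus the array's 75th percentile) on the 6 cortisol arrays and the 6 control arrays, numbered as in the labels, with the mean and SD of each group. HSPA5 runs from -0.25 to 2.34 on cortisol arrays and from 0.39 to 0.64 on control arrays with its first probe, so that the control range lies inside the cortisol range.

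CRYAB had a lowest, median and highest level of 5.49, 6.11 and 8.66 on cortisol arrays, against 5.96, 6.77 and 7.62 on control arrays. Cortisol array 1 was the highest of all 12 and stood far above the other cortisol arrays, the next of which was at 6.49, while 2 cortisol arrays lay below every control. The mean was 6.43 ± 1.15 after cortisol and 6.73 ± 0.55 in controls (SD, n = 6 each), a log2 fold change of -0.30 (95% interval -1.28 to 0.68; limma adjusted p = 0.910). The interval spans ratios of cortisol to control from 0.411 to 1.61. The difference rested on single arrays, being -0.74 without cortisol array 1, -0.11 without cortisol array 6 and -0.12 without control array 3. It was 0.59 on slide 1 and -0.74 on slide 2.

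The highest CRYAB array of each group, cortisol array 1 and control array 3, differed in MYH7 and MYOD1. The 2 arrays shared a high summed level of matrix markers and a low one of erythroid markers. MYH7, the slow myosin heavy chain, was 0.03 on cortisol array 1 and -0.53 to 1.93 on the other cortisol arrays, while it was 3.97 on control array 3 and 0.47 to 2.04 on the other controls. The muscle regulator MYOD1 was -0.35 on cortisol array 1, the lowest of all 12, and 1.83 on control array 3. The summed level of the fibroblast and matrix markers, 6 of 9 of which were measured, was the highest of its group on both, at 213 on cortisol array 1 against 98.3 to 179 on the other cortisol arrays, and at 173 on control array 3 against 96.8 to 128 on the other controls. Their part in the CRYAB values was not tested.

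HSPA1A had a lowest, median and highest level of 1.15, 1.43 and 2.53 on cortisol arrays, against 1.15, 1.94 and 2.52 on control arrays, on its first probe. The groups covered nearly the same range, with 4 cortisol arrays at or below 1.43 and cortisol array 5 at the top. The mean was 1.60 ± 0.50 after cortisol and 1.87 ± 0.54 in controls (SD, n = 6 each), a log2 fold change of -0.27 (95% interval -0.86 to 0.33; limma adjusted p = 0.858). The second, overlapping probe gave -0.23 (-0.80 to 0.35), and its reading was between 0.04 lower and 0.22 higher than that of the first on the same array. Without control array 3 the values were -0.14 and -0.12, without cortisol array 5 -0.45 and -0.41, and on slide 2 alone -0.07 and -0.03, against -0.65 and -0.62 on slide 1.

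HSP90AA1 had a lowest, median and highest level of 0.55, 0.97 and 1.77 on cortisol arrays, against 0.66, 1.17 and 1.43 on control arrays. Cortisol arrays 1 and 5 lay above every control and cortisol array 6 below every control. The mean was 1.12 ± 0.48 after cortisol and 1.16 ± 0.28 in controls (SD, n = 6 each), a log2 fold change of -0.04 (95% interval -0.51 to 0.43; limma adjusted p = 0.980). A ratio of cortisol to control between 0.704 and 1.35 is inside that interval. The sign turned with single arrays, to 0.08 without cortisol array 6 for example.

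HSP90 holds steroid receptors, and 5 listed receptor genes are reported, 1 with a higher and 4 with a lower mean after cortisol. The glucocorticoid receptor gene NR3C1 gave 0.10 on the log2 scale, cortisol minus control, with a 95% interval from -0.22 to 0.43, and the mineralocorticoid receptor gene NR3C2 gave -0.09 (-0.69 to 0.51). The aryl hydrocarbon receptor gene AHR had -0.05 and the estrogen receptor gene ESR1 -0.05. The progesterone receptor gene PGR had -0.76, with an interval from -2.22 to 0.70, and was well above background on 3 cortisol and 5 control arrays. Their median was -0.05, beside -0.02 over all probes tested, and 0 of the 5 had an unadjusted p under 0.05, against 6.82% of all probes. Among all probes 46.0% had a higher and 54.0% a lower mean.

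HSPA5 was read on cortisol arrays 1 to 6 at 1.53, 2.34, 0.30, 0.77, -0.25 and -0.23 with its first probe, and on control arrays 1 to 6 at 0.40, 0.64, 0.53, 0.64, 0.39 and 0.45. With its second probe the levels were 1.65, 2.45, 0.40, 0.83, -0.12 and 0.01 on cortisol arrays and between 0.46 and 0.82 on control arrays. Cortisol arrays 1, 2 and 4 lay above every control and cortisol arrays 3, 5 and 6 below every control, with arrays 3 and 4 close to the edge of the control range. Set against the control median of the first probe, cortisol array 2 was 3.61-fold and cortisol array 1 2.05-fold as bright, while cortisol arrays 5 and 6 were at 0.598 and 0.607 of it. The 6 control arrays lay between 0.930 and 1.11 of their own median.

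Because the cortisol arrays moved both ways, the means say little about this gene. They were 0.74 ± 1.03 after cortisol and 0.51 ± 0.11 in controls (SD, n = 6 each), so that the log2 fold change was 0.24 (95% interval -0.57 to 1.05; limma adjusted p = 0.916). With the second probe it was 0.28 (-0.52 to 1.07). The sign of that difference hung on 1 array, since without cortisol array 2 it was -0.08 and -0.04. Without cortisol arrays 1 and 2, a choice made after the values had been seen, it was -0.36 and -0.32.

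**Figure D2:**
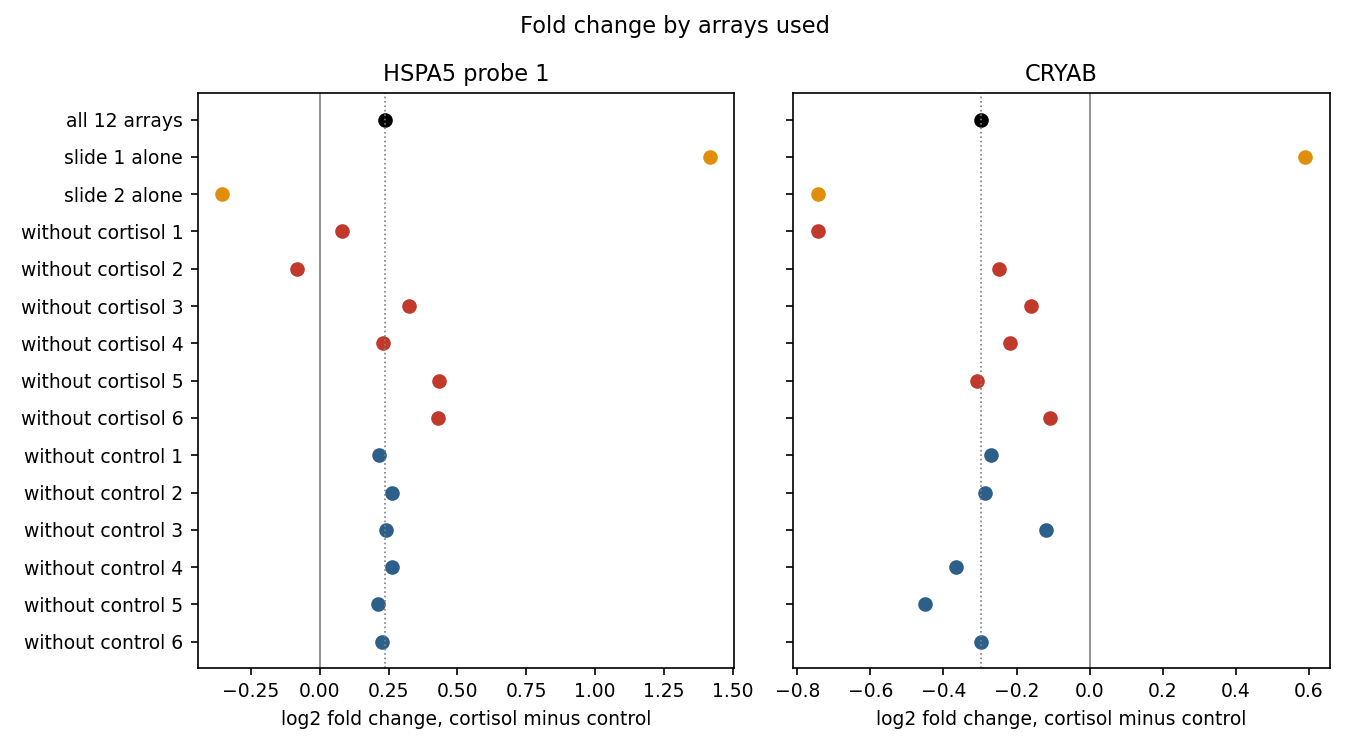
Log2 fold change, cortisol minus control, of HSPA5 (first probe) and CRYAB with all 12 arrays, on each slide alone and with each array left out. HSPA5 moves between -0.08 and 0.44 as single arrays are left out and is 1.42 on slide 1 and -0.35 on slide 2, and CRYAB lies between -0.74 and -0.11 and is 0.59 on slide 1 and -0.74 on slide 2.

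The SD of HSPA5 over cortisol arrays was 9.21 times that over control arrays with the first probe and 7.00 times with the second. Ratios at least as large as these were found in 0.0839% (9 probes) and 0.242% (26 probes) of the 10730 tested. Cortisol arrays were the more variable group in general, with a median SD ratio of 1.34 and a larger cortisol than control SD in 70.7% of probes. All 6 cortisol arrays lay outside the control range, 3 above and 3 below, in 0.280% (30 probes), both HSPA5 probes among them. With any split of some above and some below, this held for 1.07% (115 probes).

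These comparisons of spread were chosen after the HSPA5 values had been seen, so they describe the gene and are no independent test of it. An exact permutation test of the mean absolute deviation from the group median gave p = 0.00216 for each HSPA5 probe (two-sided, n = 6 each), the smallest that 924 splits can give. In a limma fit of the same deviations over all probes the unadjusted p was 0.0060 and 0.0118, a level under 0.05 that 7.77% of all probes reached, and the adjusted p was 0.418 and 0.472. An unadjusted p under 0.05 with the wider spread in cortisol arrays was reached by 6.98% of all probes, and an adjusted p under 0.05 by 0.00932%, which is 1 probe and none of the 7.

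**Figure D3:**
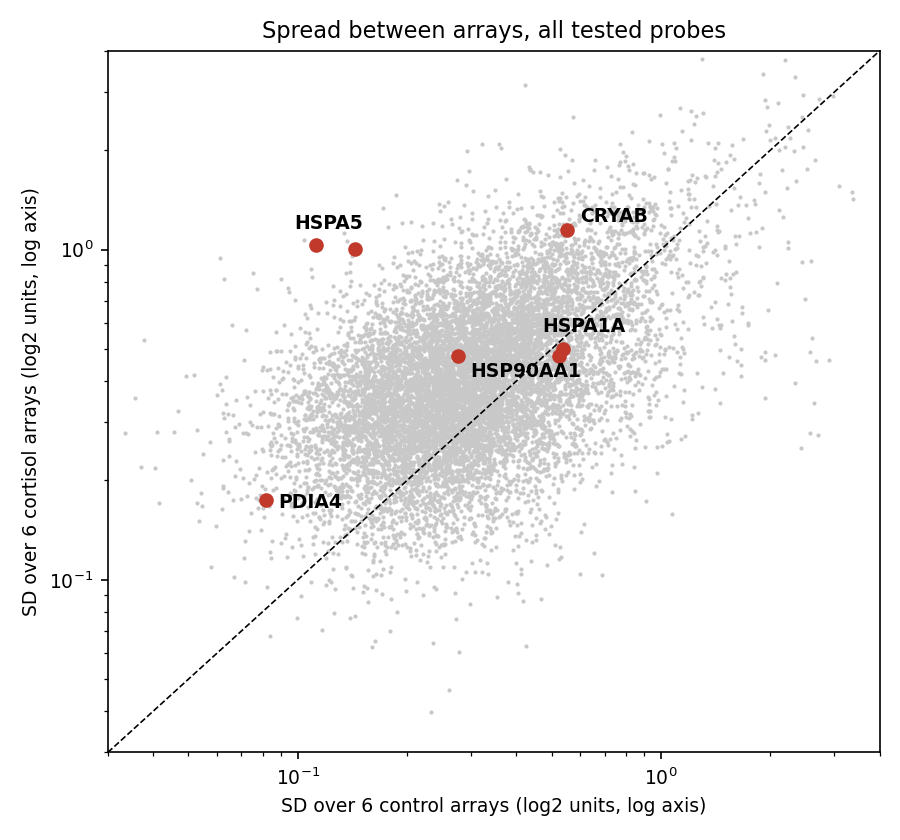
SD over the 6 cortisol arrays against SD over the 6 control arrays (log2 units, both axes logarithmic) for the 10730 tested probes in grey and the 7 chaperone probes in red, with equal spread on the dashed line. HSPA5 lies at the upper left edge, at 1.03 against 0.11 and 1.01 against 0.14, and 70.7% of all probes lie above the line.

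The HSPA5 difference was unequal between the slides. Slide 1 held the 2 highest cortisol arrays, with a cortisol mean of 1.94 and a control mean of 0.52 (n = 2 each), whereas on slide 2 the means were 0.15 and 0.50 (n = 4 each). The difference between the slides in the cortisol effect, tested after seeing the values, was 1.77 (95% interval 0.81 to 2.73) with an unadjusted p of 0.00178, a level under 0.05 that 5.02% of all probes reached, and a limma adjusted p of 0.934. Within slide 2 the cortisol SD was still 4.57 times the control SD with the first probe and 2.89 times with the second. The control arrays of slide 1 read 0.40 and 0.64, close to the 0.39 to 0.64 of the controls on slide 2. The summed unlogged level of the 7 skeletal muscle markers, in which the brightest weigh most, was lowest on the same cortisol arrays 1 and 2. It was 132 and 106 there, against 147 to 201 on cortisol arrays 3 to 6 and 152 to 192 on control arrays. The markers did not all follow the sum. On cortisol array 2, with their brighter probes, MYOD1 (2.59) and MYOG (1.02) were the highest of all 12 and MYH7 (-0.53) the lowest. On cortisol array 1, MYOD1 (-0.35) and MYOG (-0.48) were the lowest of all 12. The part of the muscle markers in the HSPA5 values was not tested.

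The named genes whose signal followed HSPA5 most closely over the 12 arrays, once group means had been removed, were SRSF3 (r = 0.92), DERL1 (r = 0.91) and XBP1 (r = 0.91), among 586 genes well above background on every array. SRSF3 encodes a splicing factor, DERL1 a membrane protein that helps move misfolded proteins out of the endoplasmic reticulum for degradation, and XBP1 a transcription factor of the unfolded protein response. Most of this likeness lay in the cortisol arrays, where r was 0.98, 0.93 and 0.97, against 0.55, 0.62 and -0.28 within the controls. These correlations were picked as the highest of many and are given as a description.

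XBP1 was 2.11 on cortisol array 2, the highest of all 12, and 0.69 and 0.80 on cortisol arrays 5 and 6, below the control range of 1.09 to 1.48. On cortisol array 1 it was 1.34, inside that range, so it did not share the high HSPA5 reading there. DERL1, read here from its dimmer probe, was 0.57 and 0.63 on cortisol arrays 1 and 2, above the highest control at 0.46. It was -0.22 and -0.06 on cortisol arrays 5 and 6, below the lowest control at 0.21. SRSF3 was 0.58 and 0.73 on cortisol arrays 1 and 2 and -0.12 and -0.17 on cortisol arrays 5 and 6, against 0.19 to 0.54 in controls. On cortisol array 3, where HSPA5 lay below every control, XBP1 (0.99) and SRSF3 (0.15) did too, and DERL1 (0.26) lay inside the control range. On cortisol array 4, where HSPA5 lay above every control, DERL1 (0.13) lay below every control. XBP1 (1.12) and SRSF3 (0.28) were below their control medians there. The mean of each was slightly lower after cortisol, with log2 fold changes of -0.11 for SRSF3, -0.12 for DERL1 and -0.12 for XBP1. DERL1 and XBP1 were also more spread over cortisol arrays, with an SD 3.59 and 3.29 times that over control arrays. The median ratio over all probes tested was 1.34.

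**Figure D4:**
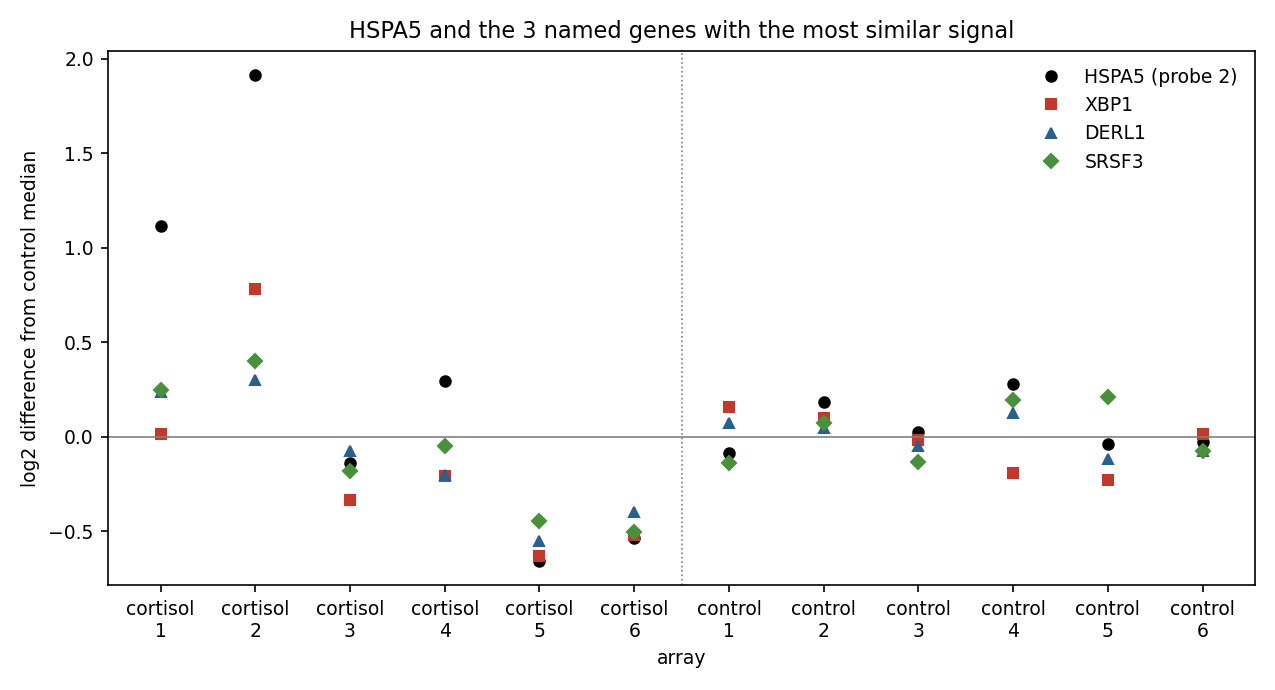
Level of HSPA5 (second probe) and of XBP1, DERL1 and SRSF3 on each cortisol and each control array, as the log2 difference from that probe's control median. All 4 are above their control median on cortisol arrays 1 and 2 and below it on cortisol arrays 3, 5 and 6, with the widest swings in HSPA5. On cortisol array 4 only HSPA5 is above its control median. DERL1 is shown with its dimmer probe.

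PDIA4 had a lowest, median and highest level of -2.65, -2.49 and -2.18 on cortisol arrays, against -2.42, -2.30 and -2.25 on control arrays. Of the cortisol arrays, 4 lay below every control, cortisol array 3 lay above every control and cortisol array 1 lay among them. The mean was -2.44 ± 0.17 after cortisol and -2.32 ± 0.08 in controls (SD, n = 6 each), a log2 fold change of -0.11 (95% interval -0.38 to 0.15; limma adjusted p = 0.865). This was the narrowest interval of the 7 probes, covering ratios of cortisol to control from 0.770 to 1.11. PDIA4 did not share the HSPA5 pattern, since on cortisol array 2, where HSPA5 was highest, it was -2.53, below every control.

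The other endoplasmic reticulum chaperones and folding enzymes were thinly covered, with 5 of 29 listed genes measured, HSPA5 and PDIA4 included. Of the 5, 4 had a higher and 1 a lower mean after cortisol, against 46.0% higher and 54.0% lower among all probes. Their median log2 fold change was 0.12 beside -0.02 over all probes tested, and 0 had an unadjusted p under 0.05, against 6.82% of all probes. ERP29, a folding helper of the endoplasmic reticulum lumen, had 0.12, PPIB, a prolyl isomerase of the same compartment, 0.12, and the disulfide isomerase gene PDIA5 0.01.

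Of 21 unfolded protein response genes 5 were measured, 2 with a higher and 3 with a lower mean, and the median log2 fold change was -0.12. Among all probes 46.0% were higher and 54.0% lower, with a median of -0.02. The sensor ATF6 had 0.06 and the transcription factor ATF4 0.07. DERL1 had -0.18 with its brighter probe. DDIT3 (CHOP) promotes cell death under lasting endoplasmic reticulum stress. It had -0.25 with its brighter probe, which was well above background on 5 cortisol and 5 control arrays. The other probe had -0.72, with a limma unadjusted p of 0.0565, and was well above background on 2 cortisol and 5 control arrays. These probes start at bases 349 and 348, so they read almost the same stretch and are no independent readings. None of the 5 genes had an unadjusted p under 0.05 with the probe used for the count, against 6.82% of all probes.

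The cytosolic lists held few further genes. CRYAA, the alpha crystallin known chiefly from the lens, had a log2 fold change of 0.0022. The J protein gene DNAJA1 had -0.05, the BAG family gene BAG6 0.10 and the chaperonin subunit gene TCP1 0.08. No heat shock factor of 5 listed and no CRYAB partner of 6 listed was found on the array by name. Over all chaperone and unfolded protein response lists, 17 of 129 genes were measured, 9 higher and 8 lower after cortisol, with a median of 0.0022. Among all probes 46.0% were higher and 54.0% lower. Of the 17, 0 had an unadjusted p under 0.05, against 6.82% of all probes.

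**Figure D5:**
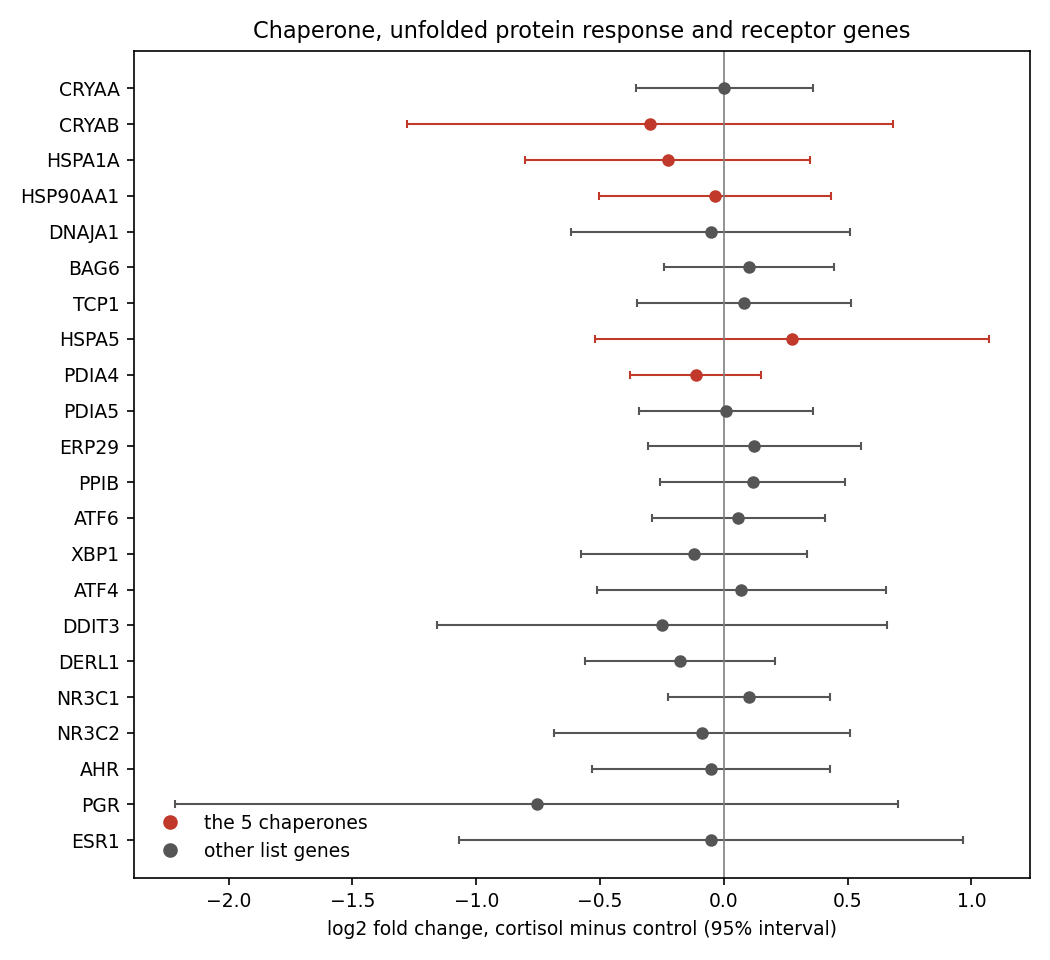
Log2 fold change, cortisol minus control, with its 95% interval (n = 6 arrays in each group), the 5 chaperones in red. Each measured chaperone, unfolded protein response and receptor gene is shown with its brightest probe. Every interval includes 0, and the widest among the 5 chaperones are those of CRYAB, from -1.28 to 0.68, and HSPA5, from -0.52 to 1.07.

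No pair of the 5 chaperones varied together detectably from array to array, though 12 arrays can miss a moderate relation. Over the 12 arrays, with group means removed, the 10 pairs gave Pearson r between -0.52 and 0.58, and the lowest permutation p adjusted over the 10 pairs was 0.446 for Pearson and 0.376 for Spearman. CRYAB and HSP90AA1 had r = 0.58 (permutation p = 0.0892, adjusted 0.446) and rho = 0.63 (permutation p = 0.0376, adjusted 0.376). Their r was 0.74 within cortisol arrays, 0.02 within controls, 0.41 within slide 2 and 0.58 without cortisol array 1 and control array 3, the arrays farthest from the CRYAB median.

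HSPA1A and HSPA5 had r = -0.52 (permutation p = 0.0529, adjusted 0.446) and rho = -0.50 (permutation p = 0.0849, adjusted 0.425). Their r was -0.71 within cortisol arrays, -0.48 within controls, -0.65 within slide 2 and -0.38 without the arrays farthest from the HSPA1A median, cortisol array 5 and control array 4. The endoplasmic reticulum pair, HSPA5 and PDIA4, had r = -0.03 (permutation p = 0.943, adjusted 0.981) and rho = 0.05 (permutation p = 0.896).

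Each chaperone had its own nearest genes, again as a description over 586 genes and 12 arrays. CRYAB was followed most closely by FHL1, a LIM-domain protein abundant in muscle (r = 0.92), and by SLC12A4, a potassium-chloride cotransporter (r = 0.90). CCN2, connective tissue growth factor, came next (r = 0.87), read here from its dimmer probe. FHL1 shared both extremes, with 6.50 on cortisol array 1 and 6.18 on control array 3, the highest levels of each group. HSPA1A was followed by the cyclin gene CCND3 (r = 0.86), ZFP36, whose protein destabilises messenger RNAs (r = 0.79), and the lysosomal gene PSAP (r = 0.76).

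HSP90AA1 was followed by the translation initiation factor gene EIF3A (r = 0.89), a ubiquitin gene matched to UBB that the array itself describes as ubiquitin C (r = 0.83), and the lysosomal protease gene CTSB (r = 0.82). PDIA4 was followed by CHI3L1, a secreted chitinase-like protein (r = 0.93), the chemokine gene CXCL8 (r = 0.82) and the ribosomal protein gene RPS26 (r = 0.80). For CHI3L1 the likeness held within both groups, with r = 0.93 within cortisol arrays and 0.92 within controls.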

How the data were processed

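Each of the 12 samples has a scanner file of a 1-colour Agilent array. Per the file headers, the authors read it with Agilent Feature Extraction 10.1.1.1, whose processed intensity is background-subtracted and detrended within the array. The authors also deposited a table of log2 values, with column medians between 6.05 and 6.06, whose normalization and centring no label or header states.

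The 15208 non-control spots make up 15008 probes. Outlier-flagged spots were left out, spots of a probe averaged, and log2 processed intensity minus each array's 75th percentile tested with limma 3.58.1 (R 4.3.3), with Benjamini-Hochberg adjustment over the 10730 probes called well above background on 6 or more of the 12 arrays. Relations between genes were tested with 100000 permutations within groups (scipy 1.17.1). Array intensities carry no counts, so the number of arrays limits the precision. The fits were tested on simulated data.

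Genes were named from the array's symbols, accessions and Entrez numbers through a RefSeq gene table (assembly ARS-UI_Ramb_v3.0, used for names only), and 29 probes by hand from the array's names and descriptions. A list gene was read from its brightest probe. In the search for the genes most like a chaperone, DERL1 and CCN2 were each read from a dimmer one. Named were the 5 chaperones, every measured gene of the lists, except 1 that is not reported here, and, for each chaperone, the 3 named genes with the highest r. The chaperones, lists and tests were chosen with earlier results of these data known. Alternatives were other background corrections, scalings and filters, the deposited log2 values, blocks for slide, for slide with row and for replicate number, single slides, array weights and each array left out. Comparisons of spread and between slides were added after seeing the data. Same-numbered arrays of the groups did not all deviate together, with r between -0.12 and 0.31, so the numbers were not taken to pair samples.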

Additional observations from a re-analysis of the deposited data

Results flagged for a closer look

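Each group of 6 arrays was searched for an array farther from the rest than Dixon's limit for 6 samples, in the chaperone probes, the other list genes and 3 measures of array quality. Chance alone exceeds that limit in about 1 of 20 groups, and 5 of the 54 groups searched exceeded it. CRYAB was 8.66 on cortisol array 1, where the next cortisol array was at 6.49. ATF6 was -2.48 on control array 1, above the next control at -2.92. On control array 3, the array with a distinct fibre-type profile, ERP29 was 1.50, below the next control at 1.98, and ESR1 was -0.29, below the next control at 1.27. The median local background was 18 intensity units on control array 4 and at least 21 on the other controls. HSPA5 exceeded the limit in neither group, because its cortisol arrays were spread over the whole range.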

How the results depend on the processing

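No probe passed an adjusted p of 0.05 in the fit, and 0 passed under every alternative but slide 1 alone, where 1 did, not a chaperone probe. HSPA1A (both probes) and PDIA4 kept their sign under all 26 alternatives. CRYAB turned to 0.59 on slide 1 alone and lay between -0.74 and -0.11 with single arrays left out. HSPA5 turned to -0.35 and -0.32 (first and second probe) on slide 2 alone and to -0.36 and -0.32 without cortisol arrays 1 and 2, and lay between -0.0840 and 0.44 and between -0.0411 and 0.47 with single arrays left out. HSP90AA1 lay between -0.17 and 0.0766 as single arrays were left out. The replicate number as a block left each value unchanged (HSPA5 0.24, CRYAB -0.30) and changed no call. The HSPA5 spread stayed wider in cortisol arrays under all 18 alternatives, with a log2 SD ratio between 2.74 and 3.36 and between 2.32 and 3.26 as single arrays were left out. That of CRYAB turned to -0.71 on slide 2 alone and lay between -0.51 and 1.61, and those of the HSPA1A probes lay between -1.17 and 0.14 and between -1.35 and 0.21, with single arrays left out.

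Weak relations changed sign. HSPA1A with PDIA4 had r = 0.30 in the deposited values, 0.0767 with group means kept and -0.15 to 0.0824 with arrays left out. HSP90AA1 with HSPA5 had 0.0565 in the deposited values, 0.0061 after quantile normalization and -0.28 to 0.37. HSPA5 with PDIA4 had -0.39 in the deposited values, 0.0617 after quantile normalization and -0.22 to 0.24, and HSP90AA1 with PDIA4 0.39 in the deposited values and -0.0838 to 0.38. The cause of these changes was not tested.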

Other observations

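Another probe, listed under a sheep expressed sequence tag with no gene name, shares a run of 44 bases with the first HSPA1A probe and 46 with the second, and had a log2 fold change of -0.24. Other genes of the endoplasmic reticulum outside the lists, chosen after their values had been seen, did not all follow HSPA5. KDELR2, a receptor that returns escaped chaperones such as HSPA5 to the endoplasmic reticulum, was 1.97, 1.98 and 1.69 on cortisol arrays 1 to 3 and 1.07, 1.24 and 1.01 on cortisol arrays 4 to 6, against 1.09 to 1.39 on control arrays. RPN2, a subunit of the enzyme that attaches sugar chains to new proteins, was 2.47 to 2.80 on cortisol arrays and 2.28 to 2.75 on control arrays with the first of its 2 probes.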
